A study of Mus musculus with 18 samples.

Results

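Of the 15780 named genes on the arrays, 9 that encode proteins of the acrosome or of the sperm surface are described here: Acr, Spink2, Acrv1, Zpbp and Dkkl1 for the acrosome, Clgn for the folding of surface proteins, and Adam2, Adam3 and Adam32 for the surface. They were chosen by name, not by their values, and each matched 1 probe set. The study asked what meiosis does when the stretch of unsynapsed autosomal chromatin is made longer. Its carrier males combine a t12 or a Ttf chromosome 17 with the T43H translocation (written T43 for the t12 males). Spermatocytes were sorted by flow cytometry from testes of males aged 2 months. Whole testes, without the tunica, came from males aged 15 days.

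The sorted groups were pre-mid-pachytene spermatocytes of t12+/+T43 males (3 arrays), the same stage from Ttf+/+T43H males (3 arrays), C57BL/10J spermatocytes at mid-late pachytene (2 arrays) and C57BL/10J spermatocytes at pre-mid pachytene (2 arrays). The testis groups were t12+/+T43 (3 arrays), Ttf+/+T43H (3 arrays) and C57BL/6J (2 arrays). All carriers were bred on C57BL/10J and all carry the translocation, so no group has t12 or Ttf without it. The testis control is a different strain, C57BL/6J, so a carrier's difference from it holds strain as well as genotype, and these cannot be told apart. The sorted C57BL/10J males were fertile. Levels are the authors' log2 values, on which a step of 1 is a 2-fold difference. They were compared between groups for 1 gene at a time and never between genes.

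The acrosome is a secretory vesicle over the sperm nucleus that takes shape in round spermatids and holds enzymes and binding proteins for passage through the coat of the egg. Several of its genes are already transcribed in pachytene spermatocytes, well before the vesicle is seen. Sperm surface ADAM proteins are membrane proteins of a metalloprotease family, and in the male germ line they pass through the endoplasmic reticulum with the help of dedicated chaperones, among them the product of Clgn, on their way to the surface. In mouse knockouts, loss of such chaperones or of some surface ADAM proteins leaves sperm that cannot bind the egg coat or pass into the oviduct.

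Array medians over named genes lay between 4.55 and 5.72, and from 53.9% to 57.4% of named genes had a value of at least 4 on an array, so values near or below 4 carry little signal over background. Replicate arrays correlated across genes at 0.912 to 0.992 in sorted cells and at 0.991 to 0.997 in testes. In both carrier sorts replicate 2 stood apart over all genes tested. The t12+/+T43 replicates 1 and 3 correlated at 0.984, and replicate 2 at 0.953 and 0.942 with them, while Ttf+/+T43H replicates 1 and 3 correlated at 0.988, and replicate 2 at 0.940 and 0.912 with them. Results are given below without both replicates 2 where that changes them, a setting added after these correlations were seen. Earlier work on these data had set aside Ttf+/+T43H replicate 2 with t12+/+T43 replicate 3, and results without that pair are given too. The 10 spermatid markers, among them the protamine and transition protein genes, averaged 5.33, 7.90 and 5.24 in t12+/+T43 sorts, 9.82, 10.33 and 10.18 in Ttf+/+T43H sorts, 9.35 and 8.87 in mid-late and 12.50 and 11.86 in pre-mid-pachytene C57BL/10J sorts. Spermatid markers were thus well above background in sorts that the labels call spermatocytes. In the testes the same list averaged 2.29 to 2.35, at background. As a measure of RNA and labelling quality, the Gapdh probe set at the 3' end read above that at the 5' end by 3.44 to 3.98 (log2) in t12+/+T43 sorts, 3.26 to 3.91 in Ttf+/+T43H sorts, 2.51 to 3.39 in mid-late and 2.86 to 2.93 in pre-mid-pachytene C57BL/10J sorts. The same measure lay between -0.12 and 0.14 in all testes, so sorted cells and testes differ in it. For actin it was 3.13 to 3.99 in t12+/+T43, 3.06 to 4.41 in Ttf+/+T43H, 3.38 to 3.51 in mid-late and 2.49 to 2.51 in pre-mid-pachytene C57BL/10J sorts, and 1.11 to 1.37 in testes. In both carrier sorts the highest values were those of replicate 2, at 3.98 for Gapdh and 3.99 for actin in t12+/+T43 and 3.91 and 4.41 in Ttf+/+T43H. Spermatogonia markers averaged 7.65 in Ttf+/+T43H replicate 2, against 5.54 and 5.14 in replicates 1 and 3. The pre-mid-pachytene C57BL/10J arrays have the lowest actin values of all sorts, and the part of RNA quality in the differences from them was not tested. In these bulk samples, fewer cells of a type and less RNA per cell cannot be told apart.

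**Figure D1:**
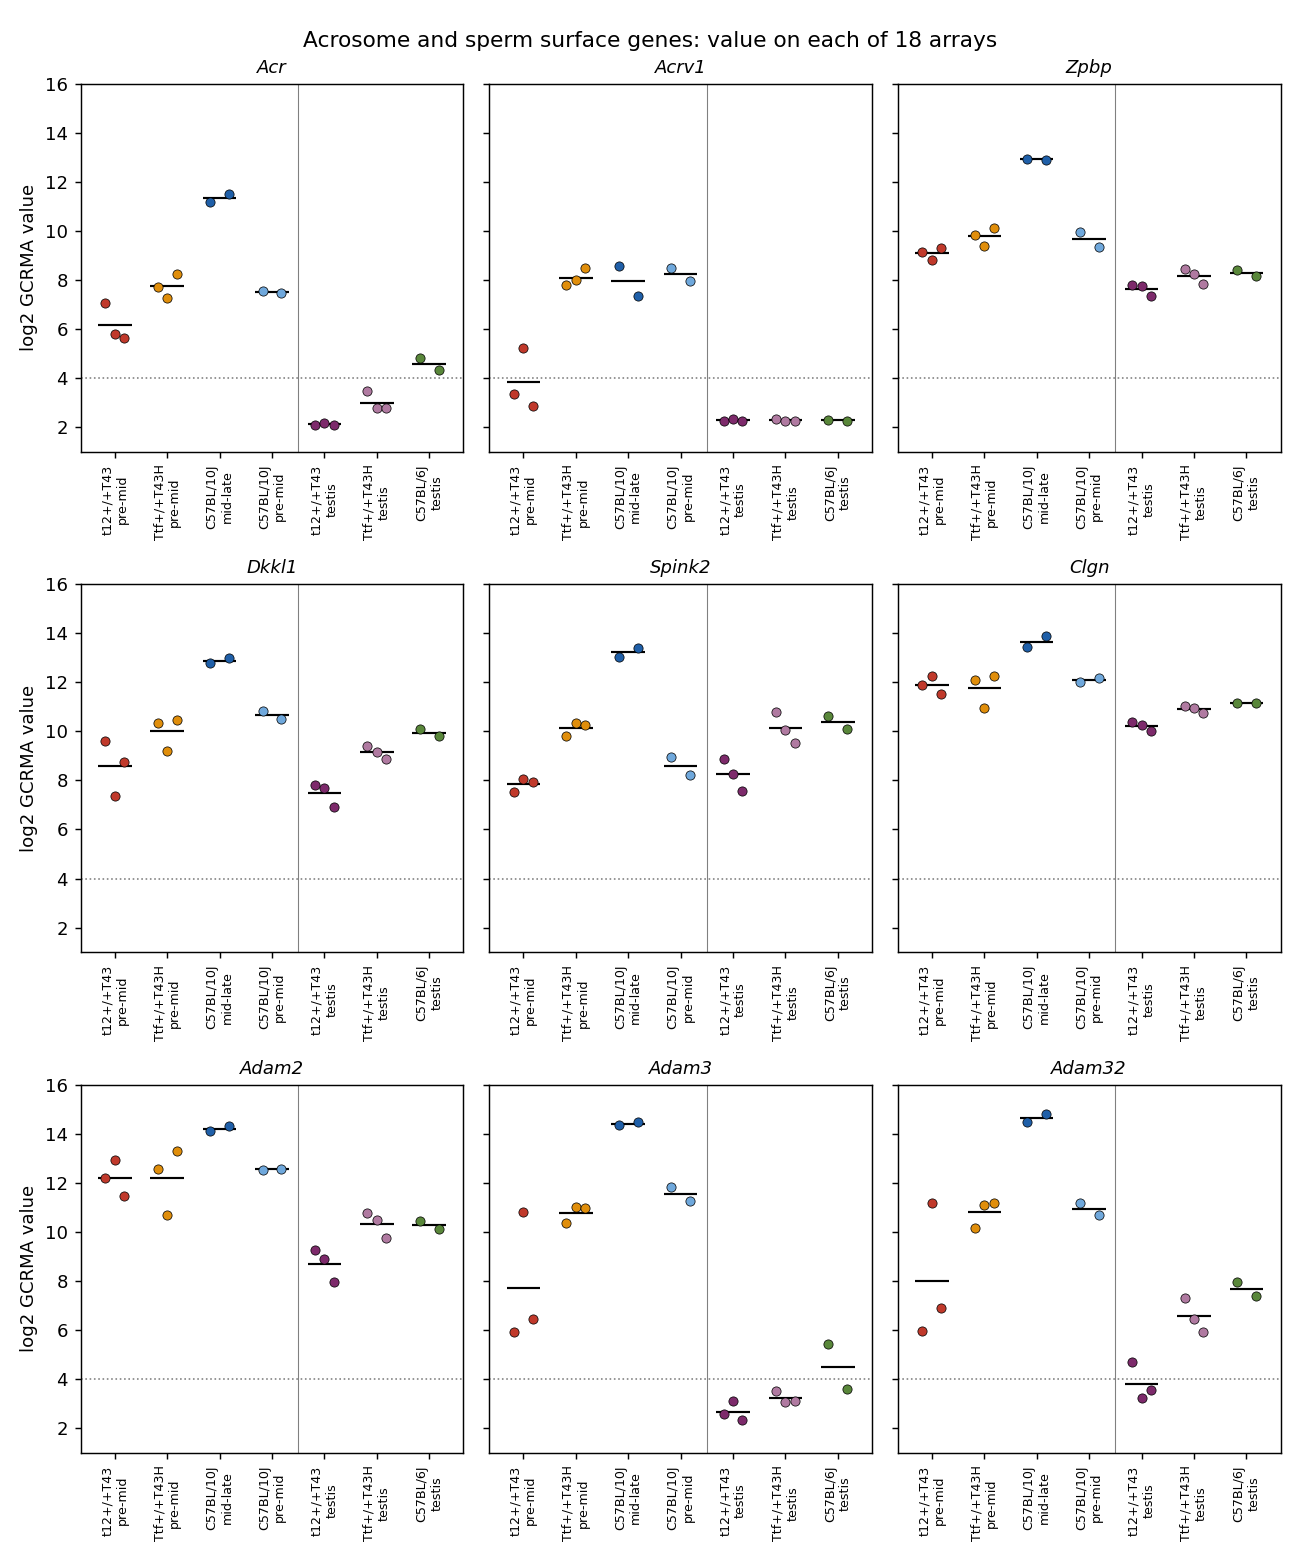
Value of each of the 9 genes on each of the 18 arrays, as the authors' log2 GCRMA value on the vertical axis. Points are arrays, the short bars are group means, the dotted line is at 4 and the vertical line divides sorted spermatocytes from 15-day testes. Every gene except Acrv1 has its highest group mean in mid-late-pachytene cells, and Acrv1 lies at 2.25 to 2.33 on all 8 testis arrays.

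The normal step between pre-mid and mid-late pachytene was read in the C57BL/10J sorts. Of the 9 genes, 6 were higher in mid-late-pachytene cells at an adjusted p under 0.05 (limma, Benjamini-Hochberg over 9666 genes), 0 were lower, and 3 did not pass. At this step 26.2% of all genes tested were higher and 30.3% lower, so single calls are common here. The median log2 difference was 2.86 over the 9 genes and -0.11 over all genes tested. Spink2 and Acr differed most among the acrosomal genes, and Acrv1 did not follow them.

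Spink2 encodes a Kazal-type inhibitor of serine proteases that sits in the acrosome. Its value was 13.03 and 13.40 in mid-late-pachytene cells and 8.94 and 8.24 in pre-mid-pachytene cells, a log2 difference of 4.63 ± 0.33 (SE, adjusted p = 7.5e-06). Acr encodes acrosin, the best known acrosomal protease, which is stored as an inactive precursor. It stood at 11.17 and 11.51 in mid-late and at 7.56 and 7.48 in pre-mid-pachytene cells, 3.82 ± 0.49 higher (adjusted p = 0.0002). Zpbp, which encodes a zona pellucida binding protein of the acrosomal matrix, gave 12.94 and 12.89 against 9.94 and 9.36 in pre-mid-pachytene cells, 3.27 ± 0.32 higher (adjusted p = 4.3e-05). The inhibitor, the protease and the matrix protein therefore all stood above the pre-mid-pachytene arrays with no overlap, and these 3 calls held with any 1 of the 4 C57BL/10J arrays left out.

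Dkkl1 encodes a secreted protein related to the Dickkopf family that is found in the acrosome. It measured 12.79 and 12.97 in mid-late-pachytene cells and 10.82 and 10.48 in pre-mid-pachytene cells, 2.22 ± 0.68 higher (adjusted p = 0.02). That call was lost whenever 1 of the 4 C57BL/10J arrays was left out, at adjusted p from 0.06 to 0.097. Acrv1 encodes SP-10, a protein of the acrosomal membrane and matrix whose transcription is known mainly from round spermatids. Its values were 8.55 and 7.34 in mid-late and 8.48 and 7.96 in pre-mid-pachytene cells, a difference of -0.28 ± 0.73 (adjusted p = 0.78), and the arrays of both stages overlap.

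Clgn, which encodes the chaperone calmegin, had 13.42 and 13.90 in mid-late-pachytene cells and 11.99 and 12.16 in pre-mid-pachytene cells, 1.58 ± 0.44 higher (adjusted p = 0.014). Adam32, a testis member of the ADAM family, had 14.48 and 14.82 against 11.19 and 10.67, 3.72 ± 1.39 higher (adjusted p = 0.047). Both passed the test, but the Clgn call was lost without either pre-mid array or without mid-late replicate 2 (adjusted p from 0.05 to 0.095), and the Adam32 call without any 1 of the 4 (0.11 to 0.16). Adam2, which encodes fertilin beta, had 14.12 and 14.30 in mid-late and 12.51 and 12.57 in pre-mid-pachytene cells, a difference of 1.67 ± 0.76 (adjusted p = 0.092). Adam3, which encodes cyritestin, had 14.35 and 14.46 against 11.83 and 11.25, a difference of 2.86 ± 1.33 (adjusted p = 0.098). For both, the mid-late arrays lie above the pre-mid arrays, while the SE is set by all 10 sorted arrays, among which the carrier arrays of Adam2 and Adam3 are widely spread. Without both replicates 2 of the carrier sorts, Adam2 passed at an adjusted p of 0.0024 and Adam3 at 0.00012, with the same differences. Without Ttf+/+T43H replicate 2 and t12+/+T43 replicate 3, Adam2 passed (0.0037) and the Adam32 call was lost (0.062).

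Other genes of the same compartments, taken from lists drawn up for this description, were mixed at this step. Of 34 further acrosomal genes, 31 are on the array and 29 were tested: 12 were higher in mid-late-pachytene cells, 1 was lower and 16 did not pass, with a median difference of 1.21. Acrbp, which encodes the acrosin binding protein, was 5.01 ± 0.37 higher (adjusted p = 8.4e-06), and the sperm protease gene Prss21 was 5.44 ± 0.60 higher (8.2e-05). Spata16, linked to the formation of the acrosome, was 4.42 ± 0.48 higher (7.1e-05), and Iqcf1, named after its value was seen, was the 1 that was lower, by -2.69 ± 0.81 (0.02). Of 11 tested sperm surface genes outside the ADAM family, 5 were higher and 5 lower. Rnase10, which is needed in mice for ADAM3 processing in the epididymis, was 7.05 ± 0.20 higher (adjusted p = 2.4e-07), while Tex101, a germ cell surface gene, was -3.75 ± 0.47 lower (0.00017).

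As a list, the general and testis chaperones of the endoplasmic reticulum did not move as Clgn did. Of 9 tested, 6 were lower in mid-late-pachytene cells, 0 were higher and 3 did not pass. The difference was positive for 1 of the 9, the testis gene Pdilt, named after its value was seen. Pdilt had 6.16 and 5.67 in mid-late and 5.29 and 5.01 in pre-mid-pachytene cells, without passing. Calr3, which encodes the testis calreticulin calsperin and acts on ADAM3 in mice, was -3.06 ± 0.70 lower (adjusted p = 0.0053). Canx, which encodes calnexin, the widely expressed relative of calmegin, was -1.12 ± 0.24 lower (0.0036), and the disulfide isomerase gene Pdia4 was -2.01 ± 0.31 lower (0.00059). Of the 10 spermatid markers, 5 were lower in mid-late-pachytene sorts and 0 higher, with a median difference of -3.06. The part of this difference in spermatid RNA in the results for each gene was not tested.

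**Figure D2:**
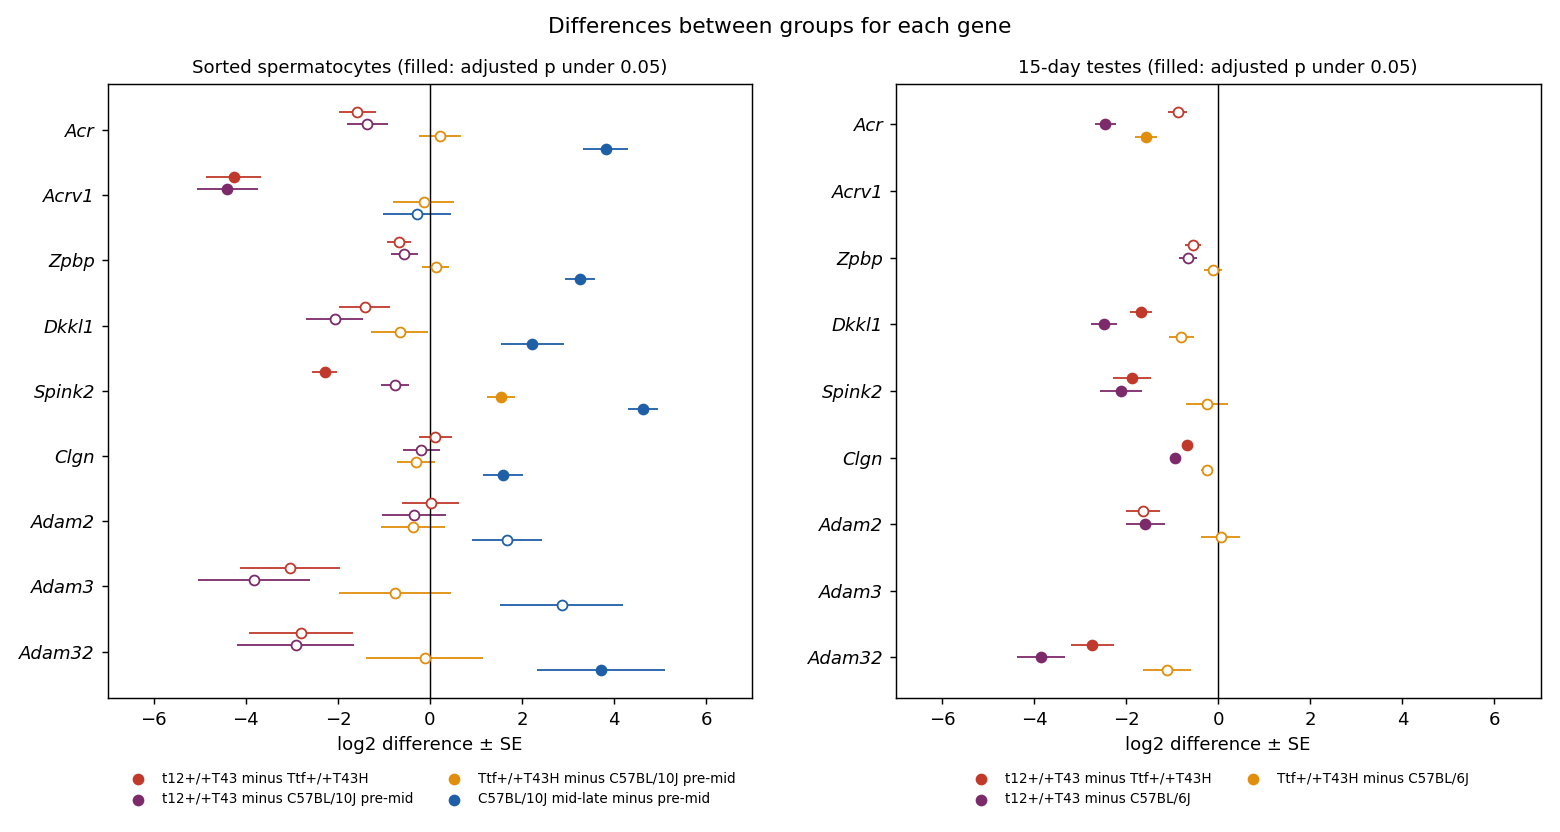
Log2 difference between groups for each gene, with its SE from limma, in sorted spermatocytes (left) and 15-day testes (right). Filled points have an adjusted p under 0.05 and open points do not, and Acrv1 and Adam3 are blank on the right because they were not tested in testes. In sorted cells the Acrv1 points of both t12+/+T43 comparisons lie below -4. In testes all filled points lie below 0, but for Acr that direction was fixed by the choice of genes to test. Acr was tested there only because it is high in the control testes.

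Whether pre-mid-pachytene cells of carriers express these genes as the C57BL/10J cells do was read from the same 10 sorted arrays. Both carrier groups were set against the same 2 C57BL/10J arrays, so these comparisons share the error of the control. In t12+/+T43 cells 1 of the 9 genes, Acrv1, was lower and 0 were higher, where 5.83% of all genes tested were lower and 3.24% higher. In Ttf+/+T43H cells 1 of the 9, Spink2, was higher and 0 were lower, where 0.59% of all genes were higher and 1.47% lower. Set against Ttf+/+T43H cells directly, 2 of the 9, Acrv1 and Spink2, were lower in t12+/+T43 cells and 0 were higher, where 0.693% of all genes were lower and 0.0621% higher. The median difference over the 9 genes was -1.36 for t12+/+T43 and -0.14 for Ttf+/+T43H against C57BL/10J, and -1.58 between the carriers, beside 0.06, 0.01 and 0.05 over all genes tested.

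Acrv1 had 3.37, 5.23 and 2.86 in t12+/+T43 cells and 7.79, 7.98 and 8.48 in Ttf+/+T43H cells, against 8.48 and 7.96 in pre-mid-pachytene C57BL/10J cells. The 3 t12+/+T43 arrays were below every other sorted array, and 2 of them lie below 4, so the true difference could be larger than the values show. The difference was -4.40 ± 0.67 from C57BL/10J (adjusted p = 0.0055), -4.26 ± 0.60 from Ttf+/+T43H (0.020) and -4.12 ± 0.67 from mid-late-pachytene C57BL/10J cells (0.0006). Ttf+/+T43H cells differed from C57BL/10J by -0.14 ± 0.67 (adjusted p = 0.96), with overlapping arrays. The spermatid markers were low in the same sorts: 10 of 10 were lower in t12+/+T43 than in C57BL/10J pre-mid-pachytene sorts, with a median difference of -6.39, and 4 of 10 were lower than in Ttf+/+T43H sorts, with a median of -3.90. The part of that spermatid signal in the Acrv1 difference was not tested. Without replicate 1 of the C57BL/10J sort the Acrv1 call against C57BL/10J was lost (-4.14, adjusted p = 0.078). The call against Ttf+/+T43H was lost in 5 of the 6 fits with 1 carrier array left out, all but the one without t12+/+T43 replicate 2 (differences of -4.41 to -3.78, adjusted p up to 0.092). The difference without both replicates 2 was -5.11 from C57BL/10J (0.00035) and -5.02 from Ttf+/+T43H (0.00091).

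The Acrv1 promoter is printed because Acrv1 was the 1 gene of the 9 called in t12+/+T43 cells against both C57BL/10J and Ttf+/+T43H cells. The promoter of Acrv1 is also a textbook case of a germ cell promoter kept silent in somatic cells, through GTGTGT repeats that bind the protein TDP-43 in mice. The promoters of Dkkl1 and Zpbp, which did not pass the test in these cells with all arrays, stand beside it. Dkkl1 is no unchanged gene: its t12+/+T43 arrays lay below C57BL/10J by -2.07 (limma, adjusted p = 0.078), and it passed in some fits with arrays left out. Sequences are from RefSeq on GRCm38.p6, from 250 bases before to 50 after the start of transcription, read along the coding strand. They lie at chr9:36692970-36693269 on the plus strand for Acrv1, chr7:45211834-45212133 on the minus strand for Dkkl1 and chr11:11462370-11462669 on the minus strand for Zpbp. Capitals mark matches on either strand to the motifs searched, which were TGACGTCA and the shorter TGACG that lies within it, GTTGCC and AACTG, then TATAAA, and last GTGTGT.
Acrv1 promoter: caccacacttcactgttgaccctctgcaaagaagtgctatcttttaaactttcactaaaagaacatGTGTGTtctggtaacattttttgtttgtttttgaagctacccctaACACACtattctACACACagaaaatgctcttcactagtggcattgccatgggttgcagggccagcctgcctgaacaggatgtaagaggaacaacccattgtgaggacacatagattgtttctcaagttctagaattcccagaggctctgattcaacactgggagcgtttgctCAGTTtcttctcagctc
Dkkl1 promoter: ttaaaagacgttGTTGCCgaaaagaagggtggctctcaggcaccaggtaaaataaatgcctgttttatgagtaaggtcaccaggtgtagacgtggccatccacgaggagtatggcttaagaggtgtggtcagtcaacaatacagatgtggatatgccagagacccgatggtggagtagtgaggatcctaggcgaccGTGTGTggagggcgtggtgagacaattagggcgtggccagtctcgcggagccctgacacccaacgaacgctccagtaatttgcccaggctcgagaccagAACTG
Zpbp promoter: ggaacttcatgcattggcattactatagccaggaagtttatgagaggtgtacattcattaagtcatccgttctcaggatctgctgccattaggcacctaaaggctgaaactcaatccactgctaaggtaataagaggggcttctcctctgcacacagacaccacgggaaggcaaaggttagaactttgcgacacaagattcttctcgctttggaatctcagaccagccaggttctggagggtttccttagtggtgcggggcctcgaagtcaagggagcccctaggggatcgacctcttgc

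The Acrv1 window holds GTGTGT at -184 and, on the opposite strand, at -139 and -127, and AACTG on the opposite strand at 34, counted from the start site. The Dkkl1 window holds GTTGCC at -238, GTGTGT at -54 and AACTG at 46, and the Zpbp window holds none of the motifs. Of the 3 RefSeq windows of Spink2, 1 holds GTGTGT 7 times, 6 of them overlapping in a single repeat that begins at -176, and the others hold none of the motifs. Of all 32544 promoter windows of 300 bases, 17.4% hold GTGTGT, 44.9% AACTG, 12.4% GTTGCC, 20.9% TGACG, 13.6% TATAAA and 1.80% TGACGTCA. GTGTGT was added to the search after the sequences were seen. These matches describe letters only, and 4 of the 9 genes had a window in the table.

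Spink2 was called between the carriers and, in Ttf+/+T43H cells, against the control. Of 12 other Kazal inhibitors listed, 6 are on the array and 0 reached the level needed for a test, so no relative of Spink2 can be set beside it. Its values were 7.51, 8.06 and 7.95 in t12+/+T43 cells and 9.80, 10.32 and 10.25 in Ttf+/+T43H cells, against 8.94 and 8.24 in pre-mid-pachytene C57BL/10J cells. No Ttf+/+T43H array overlaps a t12+/+T43 or C57BL/10J array, and the t12+/+T43 arrays all lie below both C57BL/10J arrays. Spink2 was -2.29 ± 0.27 lower in t12+/+T43 than in Ttf+/+T43H cells (adjusted p = 0.013) and 1.54 ± 0.31 higher in Ttf+/+T43H than in C57BL/10J cells (0.046). The difference of -0.75 ± 0.31 between t12+/+T43 and C57BL/10J cells did not pass (adjusted p = 0.19). The Ttf+/+T43H call was lost with any 1 of its 5 arrays left out (1.18 to 1.89, adjusted p from 0.055 to 0.35). The call between carriers was lost without Ttf+/+T43H replicate 3 (adjusted p = 0.072) and without t12+/+T43 replicate 1 (0.052) or replicate 3 (0.071), at differences of -2.22, -2.12 and -2.34. It was also lost without Ttf+/+T43H replicate 2 and t12+/+T43 replicate 3 (-2.24, adjusted p = 0.13), as was that of Acrv1 (-3.84, 0.17). It held at -2.30 without both replicates 2 (adjusted p = 0.0059).

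For Acr and Dkkl1 the t12+/+T43 values were below the control without passing the test. Acr gave 7.06, 5.77 and 5.65 in t12+/+T43 cells and 7.71, 7.26 and 8.25 in Ttf+/+T43H cells, against 7.56 and 7.48 in C57BL/10J cells. The t12+/+T43 arrays are all lower than the others, with differences of -1.36 ± 0.45 from C57BL/10J (adjusted p = 0.11) and -1.58 ± 0.40 from Ttf+/+T43H (0.15). Dkkl1 gave 9.62, 7.38 and 8.75 in t12+/+T43 cells and 10.34, 9.19 and 10.46 in Ttf+/+T43H cells, against 10.82 and 10.48 in C57BL/10J cells. Here the t12+/+T43 arrays lie below C57BL/10J (-2.07 ± 0.62, adjusted p = 0.078) and overlap Ttf+/+T43H (-1.42 ± 0.55, 0.40). Without replicate 1 of t12+/+T43, Acr passed at -1.81 (adjusted p = 0.025) and Dkkl1 at -2.59 (0.036) against C57BL/10J. Dkkl1 also passed without both replicates 2, at -1.47 (0.011), and Acr, at -1.17, did not (0.09). The differences of Ttf+/+T43H from C57BL/10J were 0.22 ± 0.45 for Acr (adjusted p = 0.88) and -0.66 ± 0.62 for Dkkl1 (0.65).

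Zpbp, Clgn and Adam2 were the genes of the 9 that differed least from the control in t12+/+T43 cells. Zpbp had 9.14, 8.83 and 9.31 in t12+/+T43 cells and 9.84, 9.36 and 10.12 in Ttf+/+T43H cells, against 9.94 and 9.36 in C57BL/10J cells. Its t12+/+T43 arrays were the lowest, by -0.56 ± 0.29 from C57BL/10J (limma, adjusted p = 0.32) and -0.68 ± 0.26 from Ttf+/+T43H (0.40). Zpbp in Ttf+/+T43H cells differed from C57BL/10J by 0.12 ± 0.29 (0.90). Clgn had 11.89, 12.24 and 11.54 in t12+/+T43 cells and 12.11, 10.96 and 12.24 in Ttf+/+T43H cells, against 11.99 and 12.16 in C57BL/10J cells, and all groups overlap. Adam2 had 12.21, 12.93 and 11.45 in t12+/+T43 cells and 12.56, 10.70 and 13.28 in Ttf+/+T43H cells, against 12.51 and 12.57 in C57BL/10J cells. The groups overlap there as well, and in both genes Ttf+/+T43H replicate 2 is the lowest array. Differences of t12+/+T43 from C57BL/10J were -0.19 ± 0.40 for Clgn (adjusted p = 0.88) and -0.34 ± 0.70 for Adam2 (0.87), and those of Ttf+/+T43H were -0.30 ± 0.40 (0.78) and -0.36 ± 0.70 (0.86).

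Adam3 and Adam32 were the genes on which the t12+/+T43 sorts disagreed most among themselves (SD 2.68 and 2.77), ahead of Acrv1 (1.25) and Dkkl1 (1.13). Adam3 had 5.91, 10.81 and 6.46 in t12+/+T43 cells and 10.35, 11.03 and 10.95 in Ttf+/+T43H cells, against 11.83 and 11.25 in C57BL/10J cells. Adam32 had 5.97, 11.17 and 6.89 in t12+/+T43 cells and 10.15, 11.09 and 11.19 in Ttf+/+T43H cells, against 11.19 and 10.67 in C57BL/10J cells. In both genes replicates 1 and 3 of t12+/+T43 were the lowest sorted arrays, and replicate 2 lay within the range of Ttf+/+T43H. With all arrays, neither gene passed: Adam3 differed by -3.81 ± 1.21 from C57BL/10J (adjusted p = 0.095) and -3.05 ± 1.09 from Ttf+/+T43H (0.35), and Adam32 by -2.92 ± 1.27 (0.22) and -2.80 ± 1.14 (0.43). Without t12+/+T43 replicate 2, Adam3 was -5.36 ± 0.33 lower than in C57BL/10J cells (adjusted p = 7.3e-05) and -4.59 ± 0.31 lower than in Ttf+/+T43H cells (0.00034). Adam32 was then -4.50 ± 0.45 (0.00059) and -4.38 ± 0.41 (0.00079) lower. These differences also passed without both replicates 2, at -5.36 and -4.46 for Adam3 (adjusted p = 6.3e-05 and 0.00051) and -4.50 and -4.24 for Adam32 (0.00055 and 0.0016). The same array had more signal from spermatid markers (7.90, where replicates 1 and 3 had 5.33 and 5.24) and from mid-late-pachytene markers (10.15, where they had 8.73 and 8.55). Its 3' probe sets also read furthest above the 5' ones, by 3.98 for Gapdh (3.44 and 3.80 in replicates 1 and 3) and 3.99 for actin (3.13 and 3.48). The part of the markers and of RNA quality in the Adam3 and Adam32 values was not tested.

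Adam3 and Adam32 are neighbours on mouse chromosome 8, in the order Adam18, Adam3, Adam5, Adam32 and Adam9. Adam18 and Adam5 are likewise testis members of the family, whereas Adam9 encodes a broadly expressed, catalytically active ADAM. Adam18 had 4.29, 8.03 and 3.59 in t12+/+T43 cells and 6.99, 7.48 and 7.58 in Ttf+/+T43H cells, with 12.75 and 12.82 in mid-late and 7.24 and 6.94 in pre-mid-pachytene C57BL/10J cells. Adam5 had 9.08, 11.02 and 8.69 in t12+/+T43 cells and 10.75 to 12.06 in Ttf+/+T43H cells, with 14.08 and 14.45 in mid-late and 11.42 and 11.09 in pre-mid-pachytene C57BL/10J cells. In all 4 testis genes replicate 2 of t12+/+T43 is thus well above replicates 1 and 3. The same held outside this stretch for Acrv1 on chromosome 9 (3.37, 5.23 and 2.86). It also held for the pachytene marker Pgk2 (7.53, 10.37 and 7.43) and the spermatid marker Prm1 (8.16, 11.62 and 8.54). Dkkl1 and the spermatid marker Tnp2 were lowest in replicate 2. The 4 testis genes share the pattern of a high replicate 2, which is not particular to them. Adam9, next to Adam32, does not share it, with 10.45, 11.08 and 11.22 in t12+/+T43 cells, 10.24, 10.36 and 9.90 in Ttf+/+T43H cells, 6.03 and 6.24 in mid-late and 10.96 and 10.95 in pre-mid-pachytene C57BL/10J cells. At the step to mid-late pachytene, Adam18 was 5.69 ± 1.18 higher (adjusted p = 0.0031) and Adam5 3.01 ± 0.73 higher (0.0068), while Adam9 was -4.82 ± 0.30 lower (3.7e-06). Of 12 broadly expressed ADAM genes, 3 were tested in sorted cells, and Adam17 was the other that was lower at this step, by -0.85 ± 0.24 (0.014).

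**Figure D3:**
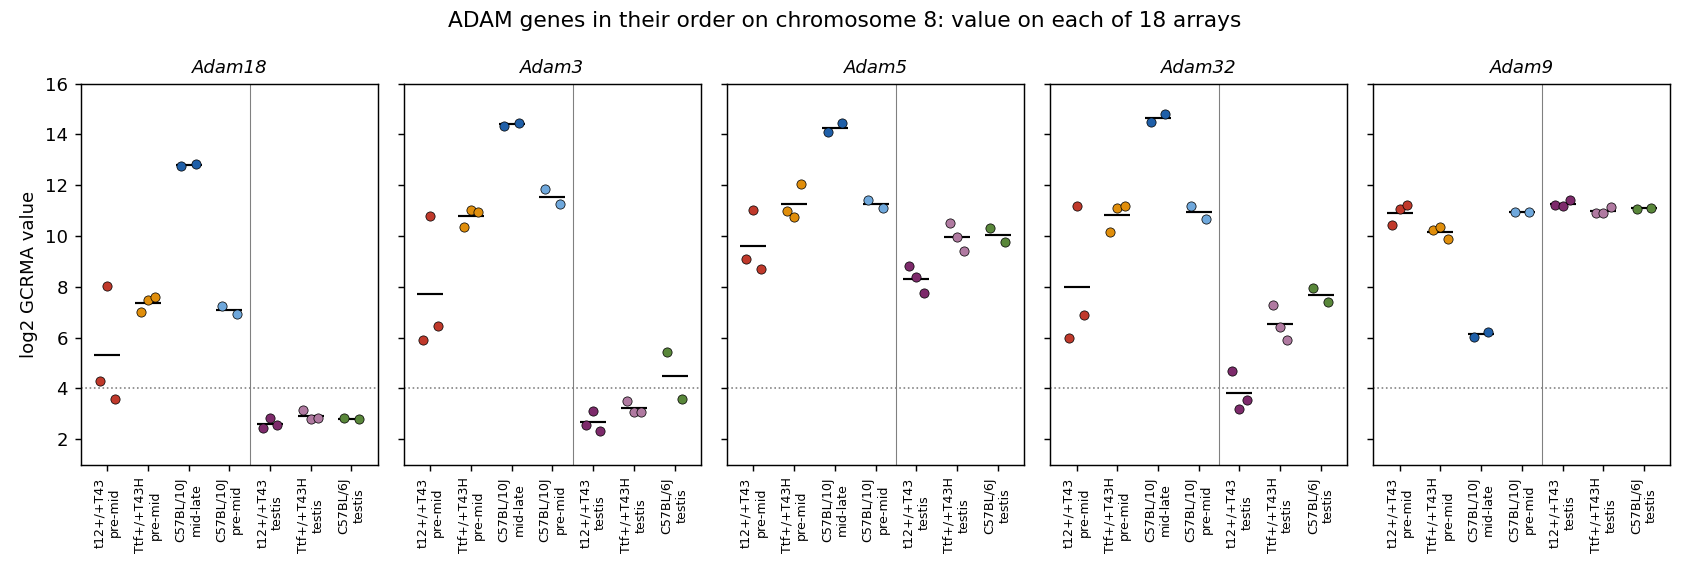
Value of 5 ADAM genes on each of the 18 arrays, in their order along mouse chromosome 8, as the authors' log2 GCRMA value. Points are arrays, short bars are group means and the dotted line is at 4. In Adam18, Adam3, Adam5 and Adam32 1 of the 3 t12+/+T43 pre-mid arrays lies well above the others, and Adam9 is lowest in mid-late-pachytene cells.

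Among further testis ADAM genes, 18 were listed, 12 are on the array and 10 were tested in sorted cells. In t12+/+T43 cells 2 were lower than in pre-mid-pachytene C57BL/10J cells and 0 higher. Adam24 was lower by -4.15 ± 0.72 (limma, adjusted p = 0.0092) and Adam26a by -3.09 ± 0.46 (0.0052). Of the 12 genes, 1, Adam5, had a value of at least 4 on every t12+/+T43 sort. Adam24 and Adam26a thus reach background in these sorts, and their true differences could be larger. None of the 10 passed limma's test at the adjusted threshold in Ttf+/+T43H cells against C57BL/10J or between the carriers, where 3 and 3 had an unadjusted p under 0.05. Of 29 further acrosomal genes, 14 were lower in t12+/+T43 than in C57BL/10J cells and 0 higher, with a median difference of -1.48. Izumo1, which encodes the sperm protein that binds the egg's JUNO receptor, was -3.88 ± 0.43 lower (adjusted p = 0.0015), and the lysozyme-like gene Lyzl4 was -3.28 ± 0.36 lower (0.0014). Izumo1 and Acrbp were also lower than in Ttf+/+T43H cells, by -2.70 ± 0.39 (0.021) and -1.85 ± 0.30 (0.036), and they were the 2 of 29 that passed there. In Ttf+/+T43H cells 1 of the 29, Lyzl4, was lower than in C57BL/10J cells (-2.45 ± 0.36, 0.018) and 0 were higher. The part of the spermatid signal in the differences of these ADAM and acrosomal genes was not tested.

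Of the 9 chaperone genes, 3 were lower in t12+/+T43 than in pre-mid-pachytene C57BL/10J cells: Calr3 by -2.77 ± 0.64 (adjusted p = 0.031), Pdilt, which encodes a testis disulfide isomerase homologue that works with calsperin in mice, by -1.57 ± 0.29 (0.012), and Pdia4 by -1.20 ± 0.28 (0.033). Pdilt had 3.64, 3.63 and 3.46 in t12+/+T43 cells, near background, against 5.29 and 5.01 in C57BL/10J cells, so its true difference could be larger. Of 11 tested surface genes outside the ADAM family, 3 were lower in t12+/+T43 than in C57BL/10J cells and 1 was higher. The higher gene was B4galt1 (2.41 ± 0.34, limma, adjusted p = 0.0038). Prss37, a serine protease homologue required for ADAM3 maturation in mice, was -5.48 ± 0.44 lower than in C57BL/10J cells (adjusted p = 0.00039) and -3.09 ± 0.39 lower than in Ttf+/+T43H cells (0.016). It was also -2.39 ± 0.44 lower in Ttf+/+T43H than in C57BL/10J cells (0.036). Markers of somatic cells differed as well, but not all in the same direction. In t12+/+T43 against C57BL/10J pre-mid-pachytene sorts, 4 of 5 Sertoli cell markers and 1 of 4 Leydig cell markers were higher and 0 lower. Of 3 peritubular markers tested, 1 was lower and 0 were higher, and the 1 macrophage marker tested did not pass. Of all genes tested, 3.24% were higher and 5.83% lower. Leydig markers averaged 7.49, 7.81 and 10.27 in t12+/+T43 sorts and 8.05, 6.61 and 6.57 in Ttf+/+T43H sorts, against 5.45 and 3.66 in C57BL/10J pre-mid sorts. Sertoli markers averaged 7.84 to 8.83, 7.29 to 7.77 and 6.44 to 6.58 in the same order of groups, and their part in the differences of the 9 genes was not tested.

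**Figure D4:**
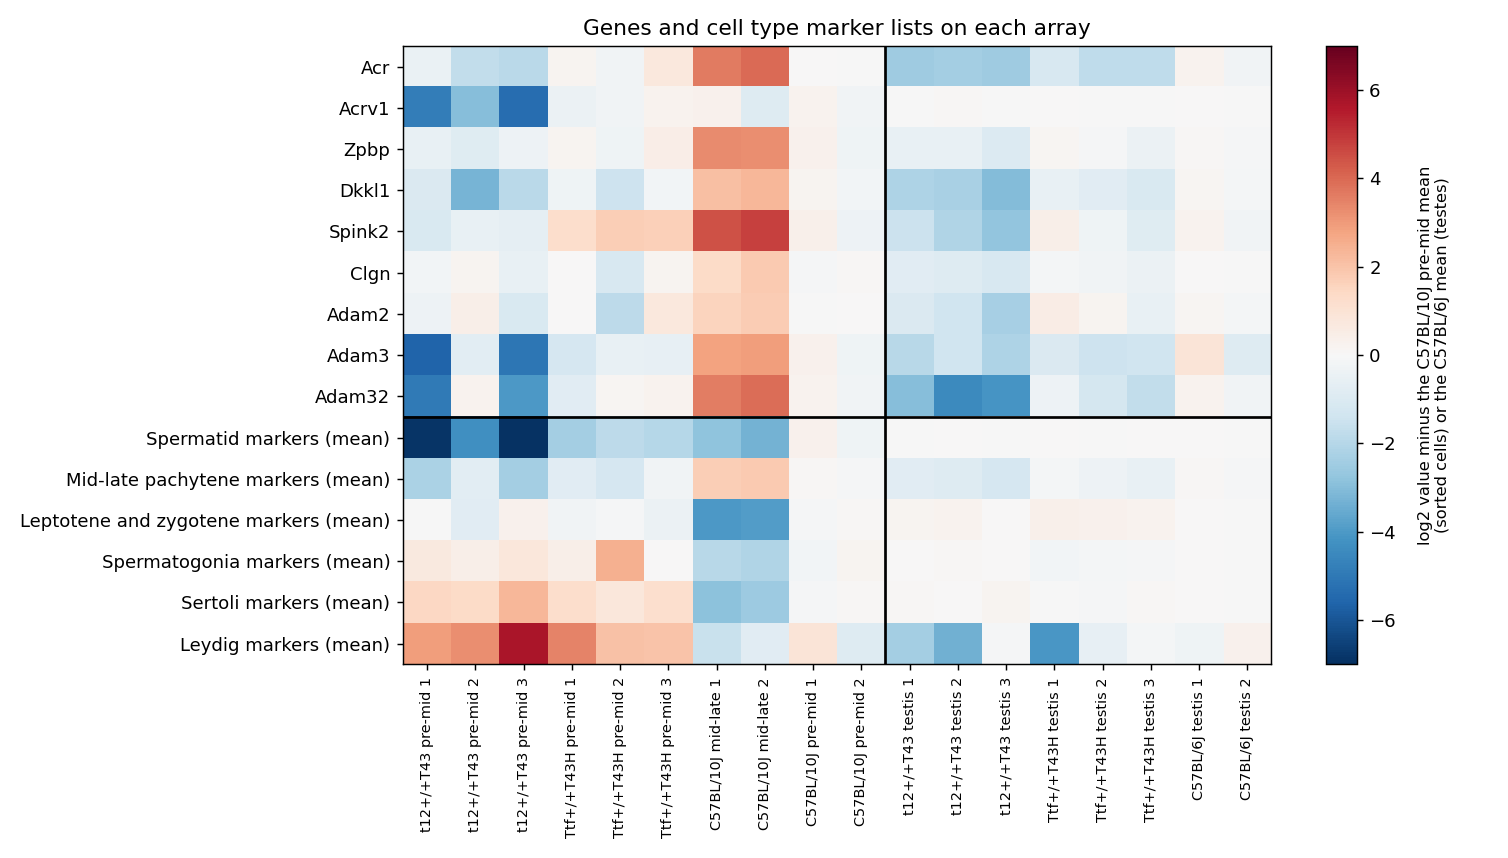
Each array's log2 value minus the mean of the C57BL/10J pre-mid-pachytene arrays (10 sorted arrays, left) or of the C57BL/6J arrays (8 testis arrays, right), for the 9 genes and for the mean of 6 cell type marker lists. Red is higher and blue lower than that mean. Replicates 1 and 3 of the t12+/+T43 sorts are low for Acrv1, Adam3, Adam32 and the spermatid markers, and the t12+/+T43 testes are low for Acr, Dkkl1, Spink2 and Adam32.

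Against mid-late-pachytene C57BL/10J cells the carrier cells had lower levels of nearly all of these genes. In t12+/+T43 cells 9 of the 9 genes were lower, where 30.2% of all genes tested were lower and 34.2% higher. In Ttf+/+T43H cells 8 of the 9 were lower, all but Acrv1, where 28.6% of all genes were lower and 31.7% higher. Both sets of differences share the mid-late control arrays. The t12+/+T43 differences were largest for Adam3 (-6.68 ± 1.21), Adam32 (-6.64 ± 1.27), Spink2 (-5.38 ± 0.31) and Acr (-5.18 ± 0.45), and smallest for Clgn (-1.77 ± 0.40) and Adam2 (-2.01 ± 0.70). In Ttf+/+T43H cells the same 6 genes differed by -3.63 ± 1.21, -3.84 ± 1.27, -3.09 ± 0.31, -3.60 ± 0.45, -1.89 ± 0.40 and -2.03 ± 0.70. Adam2 was not called in Ttf+/+T43H cells without either mid-late array (adjusted p = 0.1 and 0.13), nor in t12+/+T43 cells without either mid-late array or without t12+/+T43 replicate 1 or 3 (0.064 to 0.12). Adam3 and Adam32 were not called in Ttf+/+T43H cells without either mid-late array or without Ttf+/+T43H replicate 1, nor Adam3 without replicate 3 (0.051 to 0.12).

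In the testes of 15-day-old males, which hold germ cells up to the pachytene stage and somatic cells, 7 of the 9 genes could be tested. Acrv1 and Adam3 did not reach a value of 4 on 2 arrays. Acr reached 4 on the C57BL/6J arrays alone, so it was tested only because it is high there, and a lower value in carriers was fixed by that choice. It is left out of the counts that follow. In t12+/+T43 testes 5 of the other 6 were lower than in C57BL/6J testes, where 11.3% of all genes tested were lower and 10.5% higher. In Ttf+/+T43H testes 0 of these 6 passed limma's test against C57BL/6J (1 at an unadjusted p under 0.05), where 4.7% of all genes were lower and 3.86% higher. Against Ttf+/+T43H testes, 4 of the 6 were lower in t12+/+T43 testes, where 3.92% of all genes were lower and 1.07% higher. None was higher in any of these comparisons. Both carriers share the 2 C57BL/6J arrays.

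Dkkl1 had 7.81, 7.68 and 6.92 in t12+/+T43 testes and 9.41, 9.14 and 8.89 in Ttf+/+T43H testes, against 10.08 and 9.82 in C57BL/6J testes. All t12+/+T43 arrays were below all Ttf+/+T43H arrays, and those were below C57BL/6J. Dkkl1 was -2.48 ± 0.27 lower in t12+/+T43 than in C57BL/6J testes (adjusted p = 0.0017) and -1.68 ± 0.24 lower than in Ttf+/+T43H testes (0.030). Ttf+/+T43H differed from C57BL/6J by -0.80 ± 0.27 (0.12). Acr had 2.09, 2.17 and 2.09 in t12+/+T43 testes and 3.45, 2.77 and 2.78 in Ttf+/+T43H testes, against 4.82 and 4.32 in C57BL/6J testes. Both carrier groups lie below 4, so the differences of -2.45 ± 0.23 (adjusted p = 0.00094) and -1.57 ± 0.23 (0.009) from C57BL/6J set values near background against values just above it, with a direction fixed by the choice above.

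Spink2 had 8.88, 8.27 and 7.58 in t12+/+T43 testes and 10.78, 10.05 and 9.53 in Ttf+/+T43H testes, against 10.61 and 10.11 in C57BL/6J testes. The t12+/+T43 arrays were the lowest, by -2.12 ± 0.45 from C57BL/6J (adjusted p = 0.018) and -1.87 ± 0.41 from Ttf+/+T43H (0.048), and the other groups overlap (-0.24 ± 0.45, 0.79). Zpbp had 7.79, 7.74 and 7.34 in t12+/+T43 testes and 8.43, 8.23 and 7.85 in Ttf+/+T43H testes, against 8.39 and 8.17 in C57BL/6J testes. Its t12+/+T43 arrays were again the lowest, but the difference of -0.66 ± 0.20 from C57BL/6J did not pass (adjusted p = 0.052), nor did that of -0.54 ± 0.18 from Ttf+/+T43H (0.11).

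Clgn had 10.38, 10.27 and 10.03 in t12+/+T43 testes and 11.05, 10.94 and 10.75 in Ttf+/+T43H testes, against 11.17 and 11.15 in C57BL/6J testes. With the arrays of each group close together, it was lower in t12+/+T43 testes by -0.93 ± 0.12 from C57BL/6J (adjusted p = 0.0028) and -0.69 ± 0.11 from Ttf+/+T43H (0.031). Adam2 had 9.25, 8.88 and 7.97 in t12+/+T43 testes and 10.78, 10.47 and 9.75 in Ttf+/+T43H testes, against 10.44 and 10.13 in C57BL/6J testes. It was lower in t12+/+T43 than in C57BL/6J testes by -1.58 ± 0.42 (0.036) and gave -1.63 ± 0.37 against Ttf+/+T43H (0.053). Adam32 had 4.68, 3.21 and 3.56 in t12+/+T43 testes and 7.30, 6.43 and 5.93 in Ttf+/+T43H testes, against 7.94 and 7.39 in C57BL/6J testes. Its groups do not overlap, and it was lower in t12+/+T43 testes by -3.85 ± 0.52 from C57BL/6J (0.0035) and -2.73 ± 0.46 from Ttf+/+T43H (0.037). Since 2 of the 3 t12+/+T43 arrays lie below 4, these differences are set against values near background, and the true ones could be larger. Replicate 2 of the t12+/+T43 testes was the lowest array for Adam32, and it is not from the male of sort replicate 2, since the ages differ.

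Acrv1 lay at 2.26, 2.33 and 2.26 in t12+/+T43 testes and 2.32, 2.25 and 2.26 in Ttf+/+T43H testes, against 2.29 and 2.25 in C57BL/6J testes, at background on every array. Adam3 had 2.58, 3.10 and 2.33 in t12+/+T43 testes and 3.49, 3.07 and 3.09 in Ttf+/+T43H testes, against 5.42 and 3.59 in C57BL/6J testes, and 1 C57BL/6J array alone lies above 4. No test was made for either.

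The testis calls rest on few arrays. Against C57BL/6J, the Spink2 call of t12+/+T43 testes was lost without either C57BL/6J array or without t12+/+T43 replicate 2 (adjusted p from 0.052 to 0.12), and that of Adam2 without either C57BL/6J array or without replicate 2 or 3 (0.052 to 0.18). Between the carriers, the calls of Dkkl1, Spink2, Clgn and Adam32 were each lost without Ttf+/+T43H replicate 1 or 2 or without t12+/+T43 replicate 2, and the last 3 also without t12+/+T43 replicate 3 (adjusted p from 0.085 to 0.15). Zpbp and Adam2 passed without Ttf+/+T43H replicate 3 (0.04 and 0.031). Leaving aside Acr, whose direction was fixed by the choice above, the directions of the 6 other tested genes did not change in any of these fits of t12+/+T43 testes with 1 array left out.

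Markers of mid-late pachytene cells moved the same way in the testes. Their mean was 6.93, 6.81 and 6.56 in t12+/+T43 testes and 7.57, 7.38 and 7.20 in Ttf+/+T43H testes, against 7.83 and 7.63 in C57BL/6J testes. Of the 5 tested, 4 were lower in t12+/+T43 than in C57BL/6J testes and 2 lower than in Ttf+/+T43H testes, namely Ldhc (-1.28 ± 0.24, adjusted p = 0.04) and Nme5 (-1.37 ± 0.19, 0.03). Their part in the differences of the 9 genes was not tested. Crem, which encodes a transcription factor that switches on many genes of round spermatids, was -1.07 ± 0.19 lower in t12+/+T43 than in C57BL/6J testes (adjusted p = 0.009) and -0.77 ± 0.17 lower than in Ttf+/+T43H testes (0.048). Of 9 germ cell transcription factors listed, 7 were tested in testes. Against C57BL/6J testes, 2 of the 7 were lower in t12+/+T43 testes, Crem among them, 1 was higher and 4 did not pass. Of all genes tested there, 11.3% were lower and 10.5% higher. Between carriers, Crem was the 1 factor that passed.

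Of 11 further acrosomal genes tested in testes, 5 were lower in t12+/+T43 than in C57BL/6J testes, 0 were higher and 6 did not pass. Crisp2 was -2.12 ± 0.31 lower (adjusted p = 0.0047), and Zpbp2, the paralogue of Zpbp, was -1.60 ± 0.40 lower (0.031). Zpbp2 and Ccdc136 were also lower than in Ttf+/+T43H testes, by -2.19 ± 0.36 and -0.63 ± 0.10 (both 0.036), and they were the 2 of 11 that passed. Of 7 other surface genes, 3 were lower in t12+/+T43 than in C57BL/6J testes, led by Cmtm2a (-3.64 ± 0.35, 0.001) and Cmtm2b (-3.80 ± 0.51, 0.0036), which are needed in mice for sperm surface ADAM3. In Ttf+/+T43H testes the same pair was lower by -2.19 ± 0.35 (0.013) and -2.12 ± 0.51 (0.049). Adam5, the 1 further testis ADAM gene tested, was -1.72 ± 0.40 lower in t12+/+T43 than in C57BL/6J testes (0.023) and -1.64 ± 0.36 lower than in Ttf+/+T43H testes (0.048). Of 8 chaperone genes, 4 were higher in t12+/+T43 than in C57BL/6J testes, 0 lower and 4 did not pass, with a median difference of 0.19, where 10.5% of all genes tested were higher. Calr3 was 0.44 ± 0.09 higher (0.015). Between carrier testes none of the 8 passed limma's test at the adjusted threshold, and 3 had an unadjusted p under 0.05.

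Whether the gap between the carriers differed between sorted cells and testes was tested in a fit of all 18 arrays over 10623 genes. Acrv1 was the 1 gene of the 9 that passed, with a difference of differences of -4.27 ± 0.66 (adjusted p = 0.0068), where 0.668% of all genes tested were negative and called and 0.0659% positive and called. Since Acrv1 is at background in every testis and entered this fit only because it is high in sorted cells, its gap in testes had to be near 0, and this value restates the gap in sorted cells. It was lost with the replicate block (adjusted p = 0.089). The gap of Spink2 was -2.29 in sorted cells and -1.87 in testes, with a difference of -0.42 ± 0.50 (0.89). That of Adam32 was -2.80 and -2.73, with a difference of -0.07 ± 1.37 (adjusted p = 1). Adam2 had gaps of 0.01 in sorted cells and -1.63 in testes, which differ by 1.65 ± 0.79 without passing (0.68). Without t12+/+T43 sort replicate 2 Adam3 also passed, at -4.04 (0.00071), but it lies below 4 on all 6 carrier testis arrays, so this too restates its gap in sorted cells.

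The 9 genes did not all vary together over the 18 arrays. The closest pair was Clgn and Adam2, the chaperone and its client, with a Pearson correlation of 0.966, followed by the neighbours Adam3 and Adam32 at 0.949, and the least alike were Acrv1 and Spink2 at 0.363. These values describe arrays that share groups and tissue, and carry no test. Among the 10622 other genes searched for each, Acr was most like Dnali1 and Ccdc136 (both 0.99), Acrv1 most like 1700093K21Rik and 1700013F07Rik, and Zpbp most like Coq4 and Aven. Dkkl1 was most like Ppp1r11 (0.963) and Riiad1, Spink2 most like Marchf11 (0.948) and Prok2, and Clgn most like Gramd1c and Lrrc34. Adam2 was most like Bola3 and Abca16, Adam3 most like Slc16a7 (0.993) and Comp, and Adam32 most like Fbp1 and Cmtm2a. The likest genes of Spink2 and Dkkl1 were less close than those of the other members.

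The order of the 7 group means also differed by gene. Mid-late-pachytene cells had the highest mean for 8 of the 9 genes, and their arrays did not overlap those of the next group. For Acrv1 the t12+/+T43 sorts averaged 3.82 ± 1.25 (SD, n = 3), apart from Ttf+/+T43H sorts at 8.08 ± 0.36 (n = 3), mid-late sorts at 7.94 ± 0.86 and pre-mid C57BL/10J sorts at 8.22 ± 0.36 (n = 2 each), and these 3 groups overlap one another. The t12+/+T43 testes had the lowest mean for Acr, Zpbp, Dkkl1, Clgn, Adam2, Adam3 and Adam32. Acr and Adam3 lay below 4 on every carrier testis array, so their rank is among values near background. For Adam3 the arrays of t12+/+T43 and Ttf+/+T43H testes also overlap. For Spink2 the lowest were the t12+/+T43 sorts, at 7.84 ± 0.29, below the t12+/+T43 testes at 8.24 ± 0.65, with overlapping arrays, and Ttf+/+T43H sorts and testes averaged 10.12 ± 0.28 and 10.12 ± 0.63 (SD, n = 3 each). Levels of sorted cells and testes are set side by side here on the deposited scale, and whether both were normalized together is not given in the sources used here.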

How the data were processed

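RNA from 10 sorted spermatocyte samples and 8 testes was hybridised to 18 1-colour arrays. Per the submitters' processing notes, the authors used GCRMA, and the deposited values are on a log2 scale. The version, and which arrays were processed as 1 set, are not stated there. The protocols in the labels give 20 to 30 ng of RNA as input to 2 rounds of labelling with biotin. No genome build is named in the sources used here. The deposited table has 16539 probe sets, of which 15780 carry 1 gene symbol, and 759 without one were left out. No symbol needed an update through its Entrez ID (0 updated).

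No further normalization was applied to the deposited log2 values. Testing was limited to genes that reached 4 on at least 2 arrays of a fit. The sorted arrays (9666 genes) and the testes (9134 genes) were fitted separately, and all 18 (10623 genes) for the interaction, with limma 3.58.1 in R 4.3.3 (lmFit, 1 mean per group, eBayes, two-sided). P-values were Benjamini-Hochberg adjusted across every gene tested in a comparison, and called under 0.05. Errors are limma's SE unless SD is written, and n is arrays. The procedure was tested on simulated data. The design text calls replicates biological, and p-values measure the spread between these samples only. Arrays give no read depth, and their number limits the precision.

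The members, gene lists, marker lists and alternatives were chosen with earlier results of these data known. The 9 members were read in every comparison in which they were tested, but not every difference is printed. From each list of other genes up to 4 with the smallest p may be named, and a gene outside this rule is said to be named after its value was seen. For likeness, the 2 other genes with the highest Pearson correlation over the 18 arrays are named. A RefSeq table of GRCm38.p6 gave gene order and promoters only. Alternatives were no filter, a filter at 6, quantile normalization, median centring, an intensity trend, a replicate block, 1 fit of all 18 arrays, each array left out in turn, and Ttf+/+T43H replicate 2 left out with t12+/+T43 replicate 3 of the sorts. Leaving out replicate 2 of both carrier sorts was added after seeing the data.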

Additional observations from a re-analysis of the deposited data

Results flagged for a closer look

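The gap between t12+/+T43 and Ttf+/+T43H samples in Acrv1, the gene of the acrosomal protein SP-10, differed between sorted pre-mid-pachytene cells and 15-day testes by -4.27 on the log2 scale (limma interaction, adjusted p = 0.0068). Its gap was -4.26 in sorted cells, where all 3 t12+/+T43 arrays were below all 3 Ttf+/+T43H arrays. It was 0.01 in testes, where all 6 carrier arrays were at background. The gene was tested over all 18 arrays only because it is high in sorted cells, so its gap in testes had to be near 0, and the interaction restates the gap in sorted cells and adds nothing to it. With any 1 array left out it ran from -4.98 to -3.79 and passed, and it was lost with the replicate block (adjusted p = 0.089). Spermatid markers were low in the same t12+/+T43 sorts and at background in all testes, and their part in this difference was not tested.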

How the results depend on the processing

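The number of the 9 genes called moved with some settings, among them leaving out the pair of earlier work, Ttf+/+T43H replicate 2 with t12+/+T43 replicate 3 of the sorts. Against C57BL/10J pre-mid-pachytene cells, the 1 call in Ttf+/+T43H cells became 0 with no filter, without that pair and with the replicate block, and the 1 call in t12+/+T43 cells became 4 with all 18 arrays in 1 fit. Between the sorted carriers, 2 calls became 1 with no filter, 0 with the replicate block and 0 without that pair. In testes, the 1 call of Ttf+/+T43H against C57BL/6J, that of Acr, became 0 with a filter at 6, which left Acr untested, 0 with all 18 arrays and 4 with the replicate block. The 6 calls of t12+/+T43 against C57BL/6J, that of Acr among them, became 3 with all 18 arrays. The 4 calls between carrier testes became 0 with no filter, 0 with all 18 arrays and 7 with the replicate block, and the 1 interaction call became 0 with that block. With 1 array left out, counts ran from 3 to 4 for mid-late against pre-mid, 0 to 0 for Ttf+/+T43H and 0 to 3 for t12+/+T43 against C57BL/10J, 0 to 4 between sorted carriers, 5 to 8 and 8 to 9 for Ttf+/+T43H and t12+/+T43 against mid-late, 0 to 1 and 3 to 6 for the same carriers against C57BL/6J, 0 to 7 between carrier testes and 1 to 2 for the interaction. Without both replicates 2 of the carrier sorts, a setting chosen after seeing the data, 4 were called in t12+/+T43 against C57BL/10J, 4 between sorted carriers and 2 for the interaction. Beyond the fewer arrays or other genes of these fits, the cause was not tested.

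Changes of sign were met only among differences that had not been called. Acrv1 between mid-late and pre-mid became 0.019 with quantile normalization and 0.23 with median centring, and -0.89 to 0.33 with 1 array left out. Median centring adds 0.51 to every log2 difference of that step. Acrv1 in Ttf+/+T43H against mid-late became -0.18 and -0.50 with the same normalizations, and -0.46 to 0.75 with 1 array out. Ttf+/+T43H against C57BL/10J gave, with the replicate block, 0.0003 for Acrv1, -0.018 for Zpbp and 0.067 for Adam32, with median centring -0.0019 for Zpbp, and without the pair of earlier work 0.10 for Clgn and 0.38 for Adam2. With 1 array out the same differences ran from -0.037 to 0.46 for Acr, -0.40 to 0.12 for Acrv1, -0.17 to 0.41 for Zpbp, -0.54 to 0.10 for Clgn, -0.91 to 0.38 for Adam2 and -0.38 to 0.21 for Adam32. In t12+/+T43 against C57BL/10J, Adam2 became 0.029 without the pair of earlier work and ran from -0.71 to 0.029 with 1 out. Between sorted carriers, Clgn became -0.11 and Adam2 -0.35 without the pair of earlier work, Adam2 -0.046 with quantile normalization, and with 1 out Clgn ran from -0.29 to 0.35 and Adam2 from -0.72 to 0.56. Ttf+/+T43H against C57BL/6J gave, with the block, 0.037 for Zpbp and 0.070 for Spink2, and with 1 array out -0.24 to 0.046 for Zpbp, -0.57 to 0.051 for Spink2 and -0.17 to 0.34 for Adam2. Without both replicates 2, Clgn and Adam2 became 0.10 and 0.38 in Ttf+/+T43H against C57BL/10J and -0.46 and -1.09 between sorted carriers. For the interaction, median centring gave 0.072 for Zpbp and 0.14 for Adam32, and leaving out the pair of earlier work -0.22 for Dkkl1 and 0.63 for Adam32. With 1 out it ran from -0.34 to 0.038 for Zpbp, -0.26 to 0.86 for Dkkl1 and -1.65 to 0.95 for Adam32. The cause of these changes was not tested.

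Of 486 differences with 1 array left out, 382 kept direction and side of the threshold, 60 lost a call, 10 gained one and 34 changed sign, and of 702 under other settings these numbers were 617, 31, 30 and 24. Same-numbered arrays deviated together at correlations of -0.35 to 0.25 in sorted cells (median -0.10) and -0.07 to 0.68 in testes (median 0.26). For arrays of other numbers these were -0.27 to 0.22 (median 0.08) and -0.63 to 0.40 (median -0.20). In testes, arrays of the same number were thus more alike in their deviations. The labels do not state that the numbers pair samples, so the main fits hold no block. Whether a shared step lies behind the testis numbers was not tested. Counts over all genes moved as well. Between sorted carriers, 73 genes were called, 411 without t12+/+T43 replicate 2, 0 without the pair of earlier work and 0 with the block (825 and 869 at an unadjusted p under 0.05 in limma), 15 with no filter and 575 with all 18 arrays in 1 fit. That 1 fit called 2213 in t12+/+T43 and 1560 in Ttf+/+T43H against C57BL/10J, where the separate fits called 877 and 199. In testes it called 195 and 68 in the same carriers against C57BL/6J and 7 between them, where the separate fits called 1994, 782 and 456. With the block, 400 and 18 were called in t12+/+T43 and Ttf+/+T43H against C57BL/10J, 2139 in Ttf+/+T43H against C57BL/6J, 1703 between carrier testes and 18 for the interaction, where 78 were called without it. No filter left 149 calls between carrier testes, and leaving out the pair of earlier work gave 542 in Ttf+/+T43H against C57BL/10J. With 1 array left out, all-gene counts ran from 141 to 1391 in t12+/+T43 and 0 to 368 in Ttf+/+T43H against C57BL/10J (the 0, without C57BL/10J replicate 1, had 850 at an unadjusted p under 0.05 in limma), 13 to 411 between sorted carriers, 596 to 1644 and 176 to 827 for the same carriers against C57BL/6J, 9 to 900 between carrier testes and 46 to 429 for the interaction. Without both replicates 2 of the carrier sorts 2744 genes were called in t12+/+T43 and 1764 in Ttf+/+T43H against C57BL/10J, 519 between sorted carriers and 539 for the interaction. Signal over background limits Acr, Acrv1 and Adam3 in testes, Adam32 in t12+/+T43 testes and Acrv1 in t12+/+T43 sorts.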

Other observations

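Of the genes next to the 9 on their chromosomes that are no ADAM genes, taken by position alone, 11 are on the array and 7 were tested in sorted cells. Between mid-late and pre-mid-pachytene C57BL/10J cells 1 was higher, 2 were lower and 4 did not pass. Of all genes tested, 26.2% were higher and 30.3% lower at this step, so such calls are common. Mgat4d, next to Clgn, averaged 10.40 in mid-late and 5.97 in pre-mid-pachytene C57BL/10J cells, 4.43 ± 0.70 higher (limma, adjusted p = 0.00067). Chek1, next to Acrv1, was lower by -1.76 ± 0.58 (0.028), and Rest, next to Spink2, by -1.12 ± 0.25 (0.0044). In t12+/+T43 cells against pre-mid-pachytene C57BL/10J cells 1 was higher, 1 was lower and 5 did not pass, where 3.24% of all genes tested were higher and 5.83% lower. Ephx2, next to Adam2, averaged 4.63 in t12+/+T43 cells and 3.32 in the C57BL/10J cells, 1.31 ± 0.28 higher (0.021). Its means in Ttf+/+T43H cells (3.40) and mid-late-pachytene C57BL/10J cells (3.55) also lay below 4. Ephx2 was thus tested only because it is high in t12+/+T43 cells. That choice fixed the direction of its call, so nothing is drawn from it. Spata48, next to Zpbp, averaged 4.26 in t12+/+T43 cells and 6.94 in the C57BL/10J cells, -2.68 ± 0.58 lower (0.024). None of the 7 passed limma's test at the adjusted threshold in Ttf+/+T43H against pre-mid-pachytene C57BL/10J cells or between the sorted carriers, where 1 and 2 had an unadjusted p under 0.05. In testes 6 were tested, and Chek1 alone passed, 0.22 ± 0.05 higher in t12+/+T43 than in C57BL/6J testes (0.027). There 10.5% of all genes tested were higher and 11.3% lower.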
